A study of Mus musculus with 2 samples.

Results

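A set of 10 genes by which the epithelium of the thymic cortex is commonly recognised was followed in sorted medullary epithelial cells: Ly75, Prss16, Dll4, Ctsl, Kitl, Il7, Enpep, Tbata, Ackr4 and Cd83. They were chosen by symbol, and all 10 were found among the 23003 genes that could be given a symbol. The cells were mTEChi, the medullary thymic epithelial cells with high MHC class II, of 1 lentigenic mouse. That mouse carried 3 small hairpin RNAs against Clp1 and a fluorescent reporter (GFP in the labels) under a doxycycline-inducible promoter, with a transactivator driven by the EF1 promoter, which is not restricted to the thymus. From the age of 3 weeks it was fed doxycycline pellets (2 g per kg) during 2 weeks. The knockdown library (Clp1_KD) was made from its GFP-positive mTEChi and the control library (Ctr) from the GFP-negative ones, so both groups shared the animal and the drug. Whether the GFP-negative cells carried the construct without expressing it, or lacked it, cannot be told apart here. With 1 library per group no difference could be checked against replicates and p-values were not computed. The knockdown cannot be told apart from any other difference between GFP-positive and GFP-negative cells of this mouse.

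In the thymic cortex, epithelial cells receive progenitors from the blood, drive them into the T cell lineage through Notch ligands, and keep them alive with cytokines. They then display self peptides, cut by proteases of their own, to immature thymocytes that are undergoing positive selection. Most of the genes are not exclusive to that cell. Cd83 and Ly75 are also made by dendritic cells, Dll4 and Kitl by endothelium, Il7 by medullary epithelium, and the sort itself admitted only cells with low or intermediate Ly51, the antigen encoded by Enpep.

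The Ctr library held 28464803 reads over RefSeq transcripts and the knockdown library 37524730, of which the 10 genes took 39737 and 44614. Clp1 (NM_133840), the target of the hairpins and a subunit of a factor that acts in 3' end cleavage of pre-mRNA, had 1573 and 812 reads (log2 ratio -1.33, 95% interval -1.46 to -1.21). Throughout, a log2 ratio sets the knockdown library against Ctr, with reads first divided by size factors (0.877 for Ctr, 1.14 for the knockdown library), and a level is given as scaled reads per kb of transcript. Intervals cover counting error only, since there is 1 library per group. Reads were amplified by PCR and carry no molecular identifiers, so the intervals can be too narrow even for that error. A gene with at least 10 reads over both libraries was called 2-fold lower or higher when the ratio reached 2 and its interval lay wholly on one side of 0. In this bulk RNA, fewer cells of a type and less RNA per cell cannot be told apart.

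Of the 10 genes, 6 (Ackr4, Dll4, Cd83, Kitl, Prss16 and Ly75) were called 2-fold lower in the knockdown library, 1 (Il7) was called 2-fold higher, and Tbata, Ctsl and Enpep were not called. Among all 16455 genes with at least 50 reads, 18.6% were called lower and 19% higher. Among the 10941 genes with at least 500 reads, a depth closer to that of the 10 genes, the shares were 12.4% and 12.9%. The median log2 ratio of the 10 genes was -1.40, against 0.011 over the genes with at least 500 reads, whose middle 50% lay between -0.53 and 0.54. That median describes the pattern poorly, because the genes fell into separate groups: 6 ratios lay between -2.55 and -1.33, 3 between 0.07 and 0.32, and 1 at 1.45. The summed level of the 10 genes hardly differed, at 25697 (Ctr) and 24500 (knockdown) scaled reads per kb, because Tbata and Ctsl make up most of it.

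**Figure D1:**
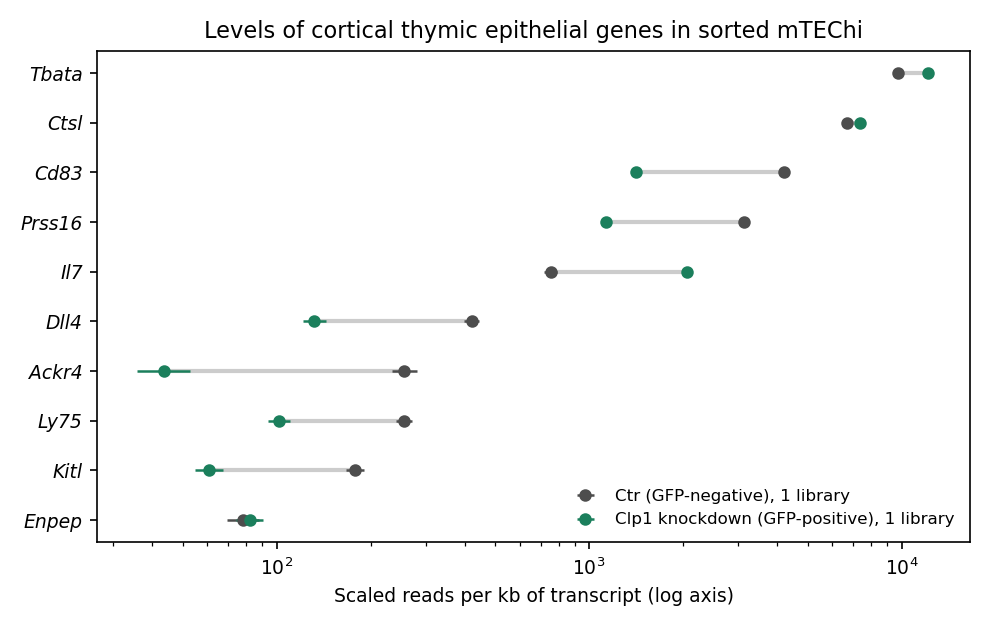
Level of each of the 10 genes as scaled reads per kb of transcript (log axis) in the Ctr library (grey) and the Clp1 knockdown library (green), 1 library each, with 95% Poisson intervals of the read counts; a grey line joins the 2 points of a gene. Tbata and Ctsl lead in both libraries, 6 genes lie lower in the knockdown library, and Il7 lies higher (752 in Ctr, 2058 in the knockdown library).

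Per length, Tbata stood highest in both libraries, with 9740 (Ctr) and 12131 (knockdown) scaled reads per kb, and Ctsl followed with 6678 and 7343. In Ctr the order went on with Cd83 (4198), Prss16 (3140), Il7 (752), Dll4 (421), Ackr4 and Ly75 (both 256), Kitl (178) and Enpep (78.0). Only Ackr4 and Ly75 had overlapping counting intervals among neighbours in that order. In the knockdown library Il7 moved up to the third place (2058), ahead of Cd83 (1412) and Prss16 (1135), and Ackr4 moved to the last place. Below them came Dll4 (132), Ly75 (102), Enpep (82.1), Kitl (60.8) and Ackr4 (43.7), with no overlap of the intervals of neighbours. By level per length among all genes, the Ctr library placed Enpep at percentile 48.6 and Tbata at percentile 99.4. The cortical genes thus ranged from the middle of the transcriptome to its top. That library also held reads of markers of other cell types. The paper describes mTEChi themselves as expressing many genes that are otherwise tissue-restricted. Which cells made these transcripts is therefore not known.

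Prss16, Ctsl, Ly75 and Cd83 belong to the uptake, cutting and display of antigen, and Enpep, a surface peptidase, is described beside them as a marker. Prss16 (NM_019429 at mm9 chr13:22094045-22101610, minus strand, 12 exons) encodes a serine protease of the endosomes and lysosomes of cortical epithelium. Ctr held 5926 of its reads and the knockdown library 2785. The log2 ratio was -1.47 (-1.53 to -1.40), which left 36.2% of the Ctr level. Ctsl (NM_009984 at chr13:64464522-64471614, minus strand, 8 exons) encodes cathepsin L, the cysteine protease that degrades the invariant chain of MHC class II in cortical epithelium. With 11544 and 16501 reads, its log2 ratio of 0.14 (0.10 to 0.17) was not called. Both proteases act on peptides for MHC class II, and their intervals did not overlap.

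Ly75 (NM_013825 at chr2:60130160-60221360, minus strand) encodes the endocytic receptor DEC-205, long used as a surface marker of cortical epithelium and of dendritic cells. Its reads numbered 1161 and 602, a log2 ratio of -1.33 (-1.47 to -1.18). The file annotates only its 5172 bases of coding exons, so its 3'UTR was not measured. Cd83 (NM_009856 at chr13:43880476-43898499, plus strand, 5 exons) encodes a membrane protein that prolongs the stay of MHC class II at the cell surface. Its 7897 and 3454 reads gave a log2 ratio of -1.57 (-1.63 to -1.51). Enpep (NM_007934 at chr3:128972093-129035638, minus strand, 20 exons) encodes aminopeptidase A, a surface enzyme known for cleaving angiotensin, which antibodies to Ly51 detect. It had 288 and 394 reads and a log2 ratio of 0.07 (-0.15 to 0.30). Because the gate set an upper bound on surface Ly51 in both groups, the RNA level of Enpep cannot by itself show how cortical the cells were. Of the 4 antigen-handling genes, then, the protease Prss16, the receptor Ly75 and Cd83 were lower, each to between 33.6% and 39.9% of the Ctr level.

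Dll4, Kitl and Il7 encode signals to developing T cells. Dll4 (NM_019454 at chr2:119151520-119161698, plus strand, 11 exons), the Notch ligand that commits progenitors to the T lineage, had 1274 and 520 reads in the Ctr and knockdown libraries (log2 ratio -1.67, -1.82 to -1.52). Kitl (NM_013598 at chr10:99478264-99563047, plus strand, 10 exons), the stem cell factor that binds Kit on progenitors, had 852 and 378 reads (-1.55, -1.73 to -1.37). As whole transcripts both ligands were lower, to 31.4% and 34.1% of Ctr. The call of Kitl rested on its distal 3'UTR, since its ratio was -0.35 (-0.79 to 0.10) over the parts before the last exon and -0.65 (-1.22 to -0.08) over the last exon up to the proximal poly(A) site, neither of them called. Il7 (NM_008371 at chr3:7572036-7613722, minus strand, 5 exons), the cytokine that keeps early thymocytes alive, was higher instead, at 1633 and 5808 reads (1.45, 1.37 to 1.53), which is 2.74-fold higher. When the trend of the ratios with GC content was subtracted, Il7 stood at 0.98 and was no longer called.

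Ackr4 (NM_145700 at chr9:104000468-104028973, minus strand, 3 exons; named Ccrl1 in the annotation) encodes an atypical receptor that takes up the chemokines Ccl19, Ccl21 and Ccl25 without signalling through G proteins. It showed the lowest ratio of the 10 genes, with 474 and 105 reads (-2.55, -2.87 to -2.25), or 17.0% of the Ctr level. With its 5'UTR alone, the only part before its last exon, the ratio was -0.62 (-1.40 to 0.16) and was not called. Tbata (NM_023064 at chr10:60638010-60643428, plus strand) encodes a protein named for its expression in thymus, brain and testis, and is known from thymic stroma. Its 8688 and 14067 reads gave a log2 ratio of 0.32 (0.28 to 0.36). The 6 annotated Tbata isoforms share most of their exons and reads, so their ratios, from 0.24 to 0.33, are not separate measurements. The other 9 genes had 1 transcript each in the file.

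Reads were then compared along each transcript, since the study asked how Clp1 affects the length of 3'UTRs. The deposited parts of a transcript are the 5'UTR, the earlier coding exons, the upstream part of the last exon, and, where a database of poly(A) sites places a site inside the 3'UTR, the distal 3'UTR beyond the most proximal such site. Cd83 was lower by nearly the same amount in its earlier coding exons (1101 and 491 reads; -1.54, -1.70 to -1.39) and its last exon (6693 and 2922 reads; -1.57, -1.64 to -1.51). Il7 was higher in all 3 parts, with log2 ratios of 1.42 in the 5'UTR, 1.70 in the earlier coding exons and 1.42 in the last exon. Dll4 was lower in all 3, with -2.24 (-2.76 to -1.74), -1.71 (-1.91 to -1.51) and -1.47 (-1.72 to -1.22). For Prss16 the earlier coding exons gave -1.69 (-1.79 to -1.60) and the last exon -1.23 (-1.33 to -1.14). For these 4 genes the call therefore did not rest on one end of the transcript.

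Ackr4 and Kitl differed from them. Ackr4 had 33 and 28 reads in its 5'UTR (-0.62, -1.40 to 0.16) but 439 and 74 in its last exon, which holds the coding sequence (-2.95, -3.32 to -2.59). Kitl had 87 and 89 reads in the parts before the last exon together (-0.35, -0.79 to 0.10) and 762 and 284 in the last exon with its distal part (-1.80, -2.00 to -1.60). The change of last-exon reads against earlier reads was -2.33 for Ackr4 (-3.19 to -1.46) and -1.45 for Kitl (-1.94 to -0.97), on a log2 scale. Both were called 2-fold lower on this measure, as were 5.69% of 11642 genes with at least 10 reads in each part and library, while 8.55% were called higher. The other 7 genes with both parts were not called, with changes between -0.10 and 0.46. Few reads stand behind the earlier parts of Ackr4 and Kitl. The first exon of Ackr4 also overlaps an exon of Acad11 on the opposite strand by 62 bases (chr9:104028912-104028973). Acad11 had 455 and 1116 reads, a log2 ratio of 0.92, and the sources used here do not give whether counting used strand, so the reads of the shared stretch cannot be told apart.

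**Figure D2:**
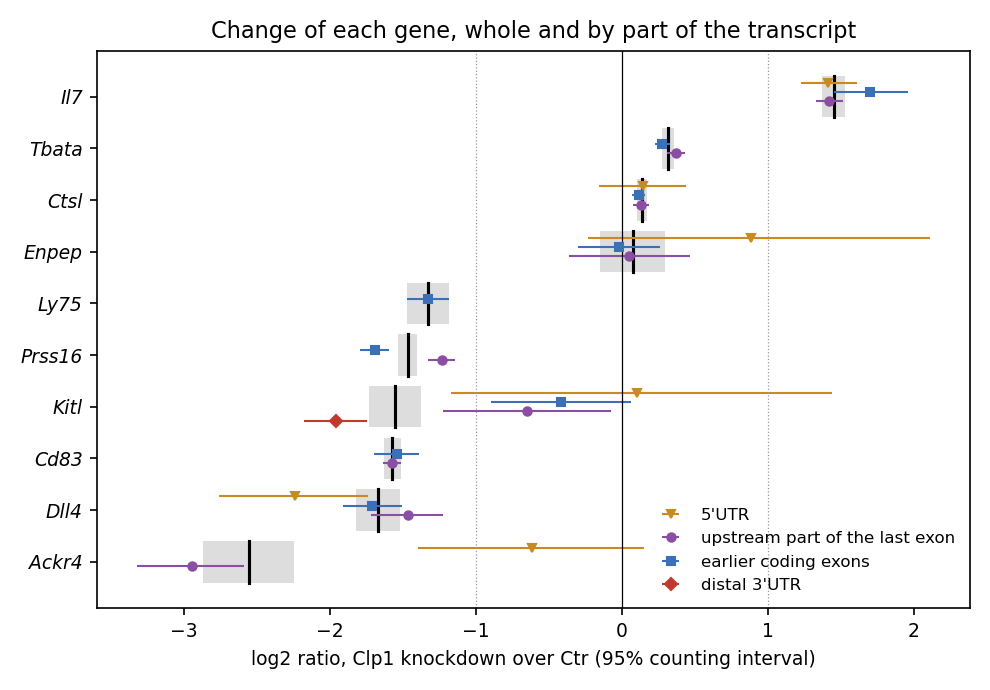
Log2 ratio of Clp1 knockdown over Ctr for each gene (black line, with its 95% interval as a grey band) and for the parts of its transcript with at least 20 reads over both libraries and reads in each (coloured symbols with 95% intervals); 1 library per group. Dotted lines mark 2-fold. The parts of Cd83 and Il7 lie together, whereas the distal 3'UTR of Kitl (-1.96) and the last exon of Ackr4 (-2.95) lie below the earlier parts of these genes.

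Of the 10 genes 3, Kitl, Ctsl and Enpep, have a distal 3'UTR in the file, of 3958, 591 and 439 bases. The 30 bases that end at each of their poly(A) sites are shown because the hexamers AATAAA and ATTAAA, which recruit the cleavage machinery, usually lie in such a window. They were read from the mm9 (NCBIM37) genome on the strand of the transcript, 5' to 3', and capitals mark a hexamer. Only that strand was searched, since the signal is read from the RNA.
Kitl proximal site (chr10:99559059-99559088, plus strand): tagaaaacaatttaaaaaaacaaaacaaaa
Kitl distal site (chr10:99563017-99563046, plus strand): gttctaAATAAAgaattttatgcaccatca
Ctsl proximal site (chr13:64465113-64465142, minus strand): ttacctcttaaaAATAAAttttagctcagt
Ctsl distal site (chr13:64464522-64464551, minus strand): gggctaagataaacatgtaatgttataccc
Enpep proximal site (chr3:128972534-128972563, minus strand): ttaAATAAAtttaaattattaccttgaaaa
Enpep distal site (chr3:128972095-128972124, minus strand): accactAATAAAaattatatatgtagactg

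The Kitl proximal window holds neither hexamer and is rich in adenine, with 22 adenines in 30 bases, a number that 0.608% of transcript ends reach. Its distal window has AATAAA 18 bases before the site. In Ctsl the arrangement is the other way round, with AATAAA 12 bases before the proximal site and neither hexamer in the distal window. Both Enpep windows hold AATAAA. Over the last 30 bases of 19915 annotated coding transcripts, 53.5% hold AATAAA and 14.0% ATTAAA, so a window without either is common and says only that these letters are not there. The sites were placed by counting the lengths of the deposited parts back from the annotated transcript end, which differed by 0 bases for Ctsl, 1 for Kitl and 2 for Enpep.

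In the Ctr library most of the last-exon reads of Kitl lay beyond its proximal site, and none of those of Ctsl did. The d3'UTR ratio, the read density of the distal 3'UTR over that of the upstream part of the last exon, measures this. For Kitl, 703 distal and 59 upstream reads in Ctr gave a ratio of 1.54, and 235 and 49 reads in the knockdown library gave 0.622. The log2 change of -1.31 (-1.93 to -0.69) was called 2-fold lower. For Ctsl, 0 of 4455 last-exon reads in Ctr were distal, with an exact binomial upper bound of 0.0828%. In the knockdown library 88 of 6438 were distal, a share of 1.37% (exact binomial interval 1.10% to 1.68%). The d3'UTR ratio of Ctsl went from 0 to 0.00929 and was called higher. The interval of its log2 change began at 4.03 and had no upper limit. With 3 distal reads put in place of 0 in Ctr as a floor, the ratio was 20.6-fold higher, a value that leaves out counting error. Enpep had 0 distal reads in both libraries with 87 and 117 reads upstream. The exact upper bounds of its distal share were 4.15% (Ctr) and 3.10% (knockdown), so that no change was detectable at this depth. Among 5527 genes with a distal part and at least 10 last-exon reads in each library, 14% were called higher on this ratio and 12.6% lower, with a median log2 change of 0.0038. The genes thus held one change in each direction.

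The distal 3'UTR of Kitl was also the part with the lowest ratio of that gene (-1.96, -2.18 to -1.74), while its upstream last-exon part stood at -0.65 (-1.22 to -0.08) and its earlier coding exons, with 77 and 75 reads, at -0.42 (-0.89 to 0.06). Of the reads of Kitl counted in a part, most lay in the distal 3'UTR, so its call as a gene was lost when only the earlier parts or only the upstream part of the last exon were used. The call of Ackr4 was lost with its 5'UTR alone, and those of Prss16, Dll4 and Cd83 were kept in each part that could be used. Ly75 has only 1 annotated part, so its call could not be compared between parts.

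**Figure D3:**
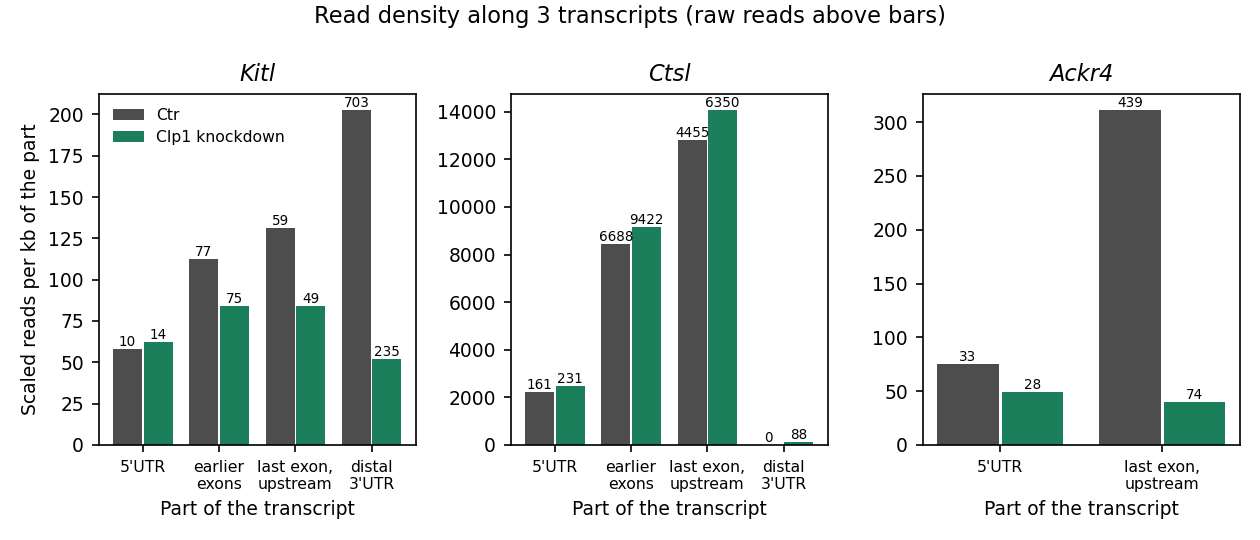
Scaled reads per kb of each part of the Kitl, Ctsl and Ackr4 transcripts in the Ctr (grey) and Clp1 knockdown (green) libraries, 1 library each; raw read counts stand above the bars. Kitl loses density mainly in its distal 3'UTR (203 to 52.1), Ctsl has 0 and 88 reads beyond its proximal poly(A) site, and Ackr4 loses density in its last exon (311 to 40.3).

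Other genes of the same cells and pathways were counted from lists of related genes. The counts of each list are to be read beside the shares over all genes with at least 50 reads, 18.6% lower and 19% higher. Of 8 further cortical genes, 3 were called lower and 1 higher, with a median log2 ratio of 0.01. Psmb11, the proteasome subunit found only in cortical epithelium, had 3655 and 694 reads, a log2 ratio of -2.78. Cxcl12, which encodes a chemokine for early progenitors, had 4193 and 1435 (-1.93). Syngr1 had 393 and 55 reads (-3.22), and Slc46a2, a transporter gene of thymic stroma, was higher with 2604 and 7971 reads (1.24, 1.17 to 1.30). Foxn1, the transcription factor of all thymic epithelium, had 4600 and 5754 reads (-0.06), and the keratin genes Krt8 and Krt18 stood at 0.26 and 0.25. The genes of this further list thus did not move as 1 group either, but some of them, such as Foxn1 and Slc46a2, are not restricted to the cortex.

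Among 13 other Notch ligands, receptors and pathway genes, 3 were called lower and none higher, with a median of 0.01. Over all genes with at least 50 reads, 18.6% were called lower and 19% higher, so a few calls in such a list are common. The ligand genes Dll1 (451 and 648 reads; 0.14), Dll3 (869 and 1071; -0.08), Jag1 (928 and 1387; 0.20) and Jag2 (555 and 728; 0.01) were not called, in contrast to Dll4. The lower ones were Lfng, a glycosyltransferase that modifies Notch receptors (681 and 56 reads; -3.98), Notch3, a receptor also of mural cells (641 and 103; -3.02), and Mib1, the ubiquitin ligase by which ligand-bearing cells take up their ligands (352 and 176; -1.38). Of 11 other genes of lysosomal proteolysis, 1 was called lower, the endopeptidase gene Lgmn (815 and 507 reads; -1.06), and none higher. The median of that list was 0.11. Of its cathepsin genes, Ctss (0.15), Ctsb (0.11), Ctsh (-0.09) and Ctsz (0.07) had ratios close to that of Ctsl. Ctsd (-0.58) and Ctsk (0.72) lay further from it on either side, and none of these genes was called.

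Among 8 receptors and ligands that pair with the signals above, the chemokine receptor genes Ccr7 (7114 and 3583 reads; -1.37), Ccr9 (1540 and 870; -1.20) and Cxcr4 (243 and 121; -1.38) were lower. The interleukin receptor gene Il7r (141 and 482 reads; 1.39) was higher, as was Ccl21a, a chemokine of medullary epithelium that Ackr4 takes up (4325 and 33628; 2.58). Ccl21a has near-identical copies that the counting could mix with it. Kit, the receptor for Kitl, had 1894 and 2871 reads (0.22), Ccl19 had 2231 and 3649 (0.33), and Ccl25 had 7693 and 10607 (0.08). The ligands of Ackr4 thus did not fall with it.

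**Figure D4:**
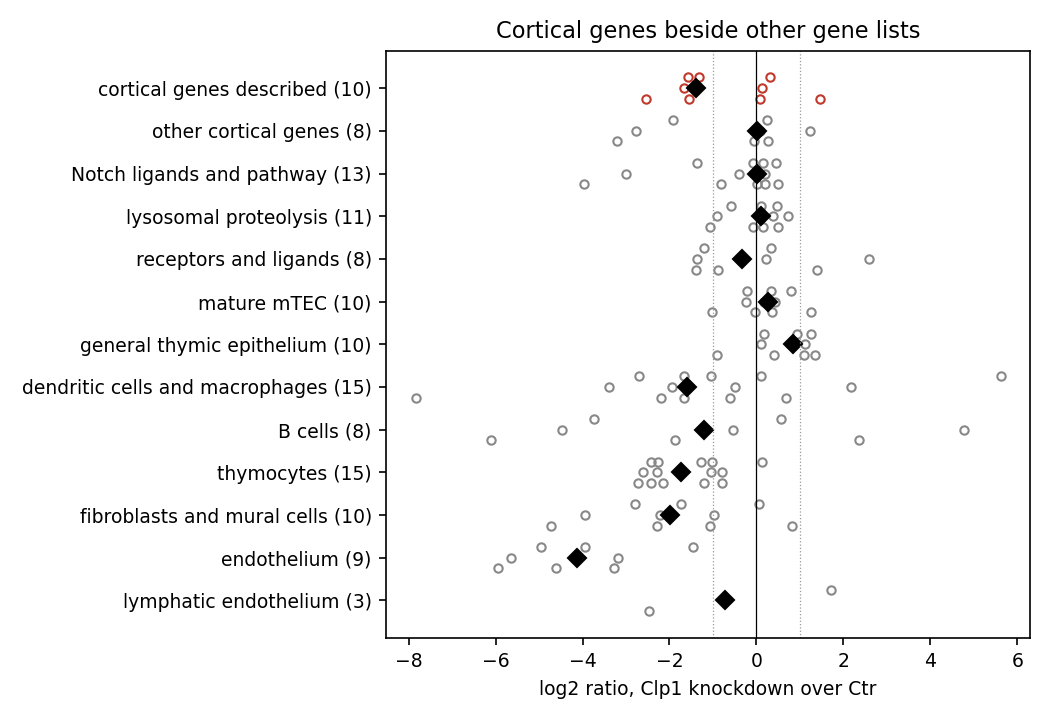
Log2 ratio of Clp1 knockdown over Ctr for the 10 cortical genes (red circles) and for the genes of 12 other lists (grey circles), with list medians as diamonds, 0.5 added to scaled counts, and the number of genes in parentheses; 1 library per group. The 10 cortical genes have a median of -1.40, the endothelial genes of -4.14, the thymocyte genes of -1.73 and the general thymic epithelial genes of 0.84.

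Markers of the sorted population were present in both libraries. Of 10 markers of mature mTEC, 1 was called lower (Cd86, a costimulatory ligand; -1.01) and 1 higher (Cd40; 1.26), with a median of 0.26. Of 10 genes of thymic epithelium in general, 4 were higher (Epcam, Trp63, Krt5 and Krt14; 1.10 to 1.34) and none lower, with a median of 0.84. Markers of several other cell types went in the same direction as the 6 lower cortical genes. All 9 endothelial markers were called lower, and their summed level was 15461 (Ctr) and 519 (knockdown) scaled reads per kb. Of 15 thymocyte markers, 12 were lower (median -1.73, summed level 9339 and 2719), and of 10 markers of fibroblasts and mural cells, 7 were lower (median -1.98, summed level 7607 and 5383).

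Of 15 markers of dendritic cells and macrophages, which share Ly75 and Cd83 with cortical epithelium, 9 were lower and 2 higher (median -1.59, summed level of the 14 with a known length 4355 and 2768). Of 8 B cell markers, 4 were lower and 2 higher (median -1.21, summed level 2594 and 2730), and of 3 lymphatic endothelial markers, 1 was lower and 1 higher (summed level 87.4 and 31.5). None of these markers was at 0 in either library except Vpreb1, a B lineage gene, at 0 in Ctr. Dll4 (-1.67) and Kitl (-1.55) are shared with endothelium, whose markers ranged from Plvap (-5.95) to Tek (-1.46). Because more than 1 cell type makes Dll4 and Kitl, these ratios cannot show which cells their reads came from. Psmb11, whose expression is restricted to cortical epithelium, stood at -2.78. Thymocytes, B cells, dendritic cells and macrophages carry CD45, and the study depleted CD45-positive cells with magnetic beads and sorted CD45-negative cells. Endothelium and fibroblasts lack CD45, but every sorted cell also had to carry much MHC class II on its surface. How far any of these cell types passed the whole sort was not tested. Because mTEChi can express tissue-restricted genes themselves, the reads of these markers cannot be assigned to other cells. Any part of other cell types in the lower levels of the 6 genes was not tested.

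The ratios of all genes also moved with the GC content of the transcript, from 0.47 at 40% GC to 0.02 at 50% and -0.51 at 60%. The cortical genes spanned from 39.4% GC (Kitl) to 55.9% (Dll4), and the 6 lower genes lay on both sides of 50%. After the trend was subtracted, Kitl stood at -2.04, Ly75 at -1.63, Dll4 at -1.32 and Prss16 at -1.17, and all 6 kept their call. Ctsl (-0.20) and Enpep (-0.23) changed sign but were not called in either setting, and Tbata stood at 0.62. An exon of Dll4 overlaps Gm14207 on the opposite strand by 214 bases, and exons of Ly75 overlap Gm13571 by up to 178 bases. Gm14207 had 361 and 310 reads (-0.60), fewer than Dll4 as a whole in both libraries. The overlap lies in the first exon of Dll4, however, and the 5'UTR of Dll4 had only 156 and 43 reads. Reads of both genes in the shared stretch cannot be told apart.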

How the data were processed

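Both libraries were made from total RNA by template-switching cDNA synthesis for low input and transposase fragmentation, and were sequenced as single 50 bp reads. The submitters' processing notes name the mm9 genome, Bowtie 1.0.0 for alignment, bedtools for counting and DESeq for their own comparison. The authors deposited counts of reads that lie wholly within the exons of 30794 RefSeq transcripts, without normalization, and the same counts for the parts of 27567 transcripts with the length of each part. Removal of duplicate reads is described only for another comparison of the study. The authors' differential expression table holds a normalized signal, fold change and p-value per transcript, and was not used.

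RefSeq identifiers were matched to symbols in a GRCm38.p6 table (30216 transcripts matched), and coordinates came from NCBIM37 with GENCODE vM1, from the transcript closest in length. The transcript with most reads stood for each gene. Counts (28464803 and 37524730 reads) were divided by size factors (median of ratios). Intervals are exact (Clopper-Pearson 95%, taken on the knockdown library's share of a gene's reads, or conditional for odds ratios). Calls needed 10 reads for listed genes and 50 or 500 for all genes. Those of the d3'UTR ratio needed 10 last-exon reads in each library. The comparison of last-exon with earlier reads needed 10 in each part and library. The calls of odds ratios and list medians used 0.5 added reads. GC content was known for 15515 of 16455 genes (94.3%) and its trend fitted by lowess. Scripts ran in Python 3.11.15 with scipy 1.17.1 and R 4.3.3 with edgeR 4.0.16 (for TMM factors), and were tested on simulated data. Alternatives were other scalings, summed isoforms, a thinned deeper library, single parts of the transcript, a GC correction, and other minimum reads and folds. The 500-read background and the comparison of last-exon with earlier reads were added after seeing the data. The 10 genes and the 12 lists beside them (120 genes) were chosen with earlier results of these data known. From those lists, genes called 2-fold were named by the interval bound nearest 0, at most 4 per list and direction, with Psmb11 and Cxcl12. Genes named outside this rule (uncalled genes, Tek, Vpreb1 and genes that overlap the 10) were chosen after their values were seen.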

Additional observations from a re-analysis of the deposited data

How the results depend on the processing

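Under 11 alternative settings the number of the 10 genes called 2-fold lower lay between 4 and 6, and the number called higher was 1 except with the GC trend subtracted, where it was 0. The lower count was 4 with only the parts before the last exon, where Kitl (-0.35) and Ackr4 (-0.62) were not called, and 4 with only the upstream part of the last exon, where Kitl (-0.65) was not called and Ly75 has no such part. The median log2 ratio of the 10 genes was -0.47, -0.64 (9 genes) and -1.24 under those 2 settings and the GC correction, and otherwise lay between -1.45 and -1.39. The number of other cortical genes called lower was 2 or 3 over the same settings. The number of genes with a called change of the d3'UTR ratio was 2 in the reported setting and in the 4 alternatives run for it, which were 2 other minimum read numbers, a ratio to all other reads of the transcript, and the thinned deeper library. With 1 library per group, no library could be left out and no paired analysis was possible because each group has a single sample. Depth limits the distal reads of Enpep and the earlier parts of Kitl and Ackr4.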
